A study of Gallus gallus with 5 samples.

Results

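CYP7A1 and CYP8B1 encode cytochrome P450 enzymes of bile acid synthesis. They were taken as the rows of the deposited table with those symbols, 2 of 6286 entries, and both passed the filter on low counts. The pair was chosen by its log2 fold changes and per-hen levels in the FF against RF contrast of an earlier pass over the same table, so those values are given here as a description, with no test.

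The data are RNA sequencing of liver from 5 broiler breeder hens, which produce the chicks raised as meat chickens. In the FF group 2 hens ate without limit, and in the RF group 3 hens had a restricted allowance. The age given for all 5 hens was 38 weeks. The hens of a group are separate animals with numbers of their own, the labels name no batch, and nothing further is given on strain or on the duration of feeding. Hens are called FF1, FF2, RF1, RF2 and RF3 after their group and replicate number.

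Bile acids are made from cholesterol in hepatocytes, and their synthesis is a main route by which the body disposes of cholesterol. CYP7A1 adds the first hydroxyl group in the classical route and limits its rate. CYP8B1 acts later and adds the hydroxyl group that distinguishes cholic acid from chenodeoxycholic acid, so its activity sets the balance between these products. In mammals, transcription of both genes is held down by returning bile acids through the receptor FXR (NR1H4), its target SHP (NR0B2) and the hormone FGF19, and is driven by HNF4A and LRH-1 (NR5A2).

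Table totals ranged from 2666609 (FF2) to 4622392 (FF1) estimated counts. FF2 stood apart from the other hens, at 44.5 on a first principal component that held 50.7% of the variance, against -28.0 to -1.75 for the rest. Of 14 hepatocyte markers 13 were in the table, and VTG1, TF, APOB and FGA were abundant in every hen. ALB was listed at 0 in all 5, so a 0 here does not show that a transcript was absent. Values in CPM are counts scaled to parts per 1000000 of the library size scaled by the trimmed mean of M values (TMM).

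CYP7A1 was higher in both FF hens than in any RF hen. It stood at 263 CPM in FF1 and 308 CPM in FF2, and at 96.7 CPM in RF1, 76.7 CPM in RF2 and 111 CPM in RF3. The groups did not overlap, and the lowest FF hen lay 2.36-fold above the highest RF hen. These levels rested on 1282 (FF1), 847 (FF2), 411 (RF1), 261 (RF2) and 476 (RF3) estimated counts. The mean over the FF hens was 285 ± 31.8 CPM (SD, n = 2), and over the RF hens it was 94.9 ± 17.4 CPM (SD, n = 3). The edgeR fit gave a log2 fold change, FF over RF, of 1.59 ± 0.28 (SE), or 3.01-fold.

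CYP8B1 varied far more among hens fed alike, and its groups overlapped. It stood at 122 CPM in FF1 and 66.5 CPM in FF2, and at 26.8 CPM in RF1, 16.4 CPM in RF2 and 72.9 CPM in RF3. RF3 therefore lay above FF2 and well above the other RF hens, while RF1 and RF2 lay below both FF hens. Its estimated counts were 593 (FF1), 183 (FF2), 114 (RF1), 56 (RF2) and 312 (RF3). The FF mean was 94.1 ± 39.0 CPM (SD, n = 2), the RF mean 38.7 ± 30.1 CPM (SD, n = 3), and the log2 fold change was 1.28 ± 0.59 (SE). It was 2.12 without RF3 and 0.77 without FF1, so single hens moved its size by more than 1.5 times. The log2 fold change of CYP7A1 stayed between 1.46 and 1.72 when any single hen was left out, and was 1.48 without FF2.

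**Figure D1:**
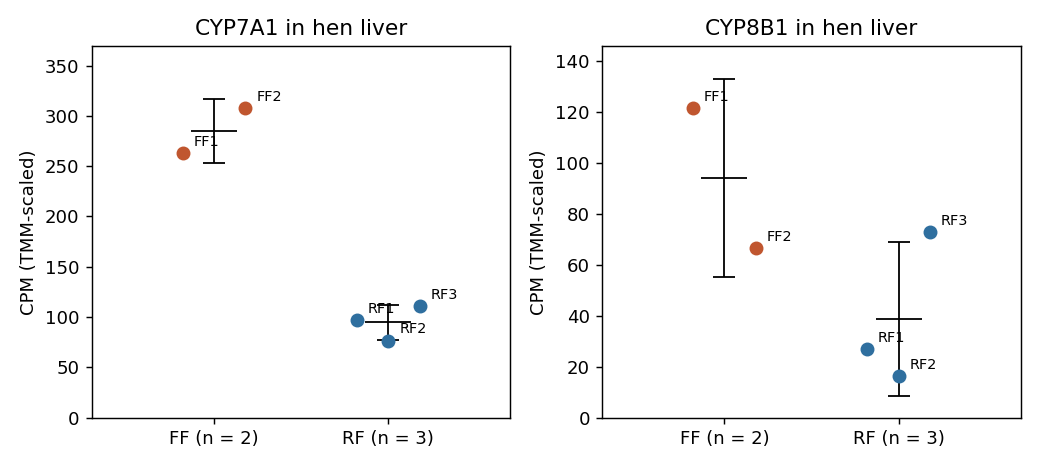
Level of CYP7A1 (left) and CYP8B1 (right) in each hen, in CPM of the TMM-scaled library; points are hens, and the horizontal marks and bars are the group mean ± SD. Both FF hens lie above all RF hens for CYP7A1, from 263 against at most 111 CPM, whereas RF3 at 72.9 CPM lies above FF2 at 66.5 CPM for CYP8B1.

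As background for these differences, 27% of the 4309 tested genes had FF and RF values that did not overlap, 13.1% with FF above. The edgeR quasi-likelihood test, adjusted by Benjamini-Hochberg at a threshold of 0.05, called 0.0464% of the tested genes, and neither CYP7A1 nor CYP8B1 was among them. The pair was picked on this contrast, so its place outside the calls is a description and no test of it. An unadjusted p under 0.05 was held by 9.35% of genes. Of the tested genes, 1.02% had a larger log2 fold change than CYP7A1 and 1.95% a larger one than CYP8B1, shares that describe how the pair was picked.

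The contrast between the members lay mostly in the spread within groups. The pooled SD of log2 CPM among hens of a group was 0.24 for CYP7A1 and 0.95 for CYP8B1, against a median of 0.37 over all tested genes. A smaller spread than that of CYP7A1 was found in 31.4% of the 500 tested genes nearest to it in mean level, and a smaller one than that of CYP8B1 in 98.4% of its own 500. The pair was picked with its per-hen levels known, so these shares are a description and no test. Within RF, the highest hen exceeded the lowest by 1.45-fold for CYP7A1 and 4.43-fold for CYP8B1. Within FF, the corresponding ratios were 1.17 and 1.83. Counting error alone, as 1 over the square root of the count, was 2.79% to 6.19% for CYP7A1 and 4.11% to 13.4% for CYP8B1. For both genes it lay below the spread between hens of a group.

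The ratio of CYP7A1 to CYP8B1 counts within a hen needs no scaling of libraries. Because the counts are not corrected for transcript length, it compares hens with each other and not the abundance of the transcripts. It was 2.16 in FF1 and 4.63 in FF2, and 3.61 in RF1, 4.66 in RF2 and 1.53 in RF3. The 2 FF hens thus lay inside the range of the RF hens, with FF1 and RF3 low and FF2 and RF2 almost equal. The mean log2 ratio was 1.66 ± 0.77 (SD, n = 2) in FF and 1.55 ± 0.84 (SD, n = 3) in RF. The difference, FF minus RF, was 0.10 against a pooled SD of 0.82, and it changed sign without FF2 (-0.44) or without RF3 (-0.37).

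Depth was sufficient to separate hens on this ratio. CYP7A1 made up 68.4% of the counts of the pair in FF1 (95% Wilson interval 66.2% to 70.4%) and 60.4% in RF3 (56.9% to 63.8%). Its share was 82.2% in FF2 (79.8% to 84.4%), 78.3% in RF1 (74.6% to 81.6%) and 82.3% in RF2 (77.8% to 86.1%). The intervals of FF1 and RF3 overlapped neither each other nor those of the remaining hens, and those of FF2, RF1 and RF2 overlapped. They cover counting error only.

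**Figure D2:**
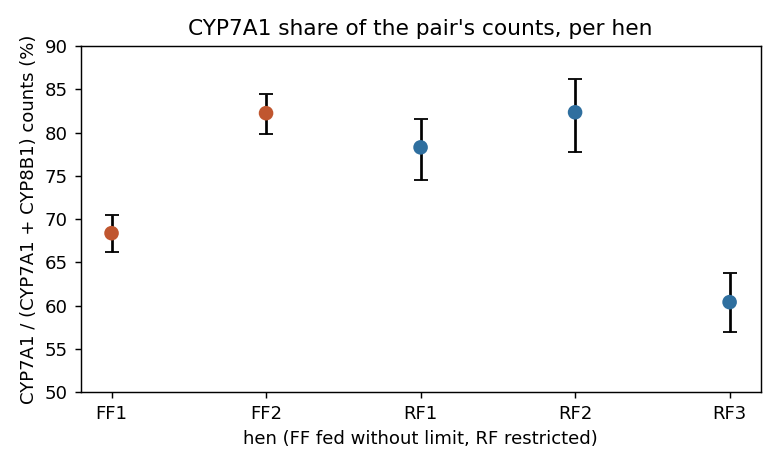
Share of the estimated counts of the pair that belonged to CYP7A1, in percent, for each hen; points are hens, bars are 95% Wilson intervals, and the vertical axis starts at 50%. FF1 (68.4%) and RF3 (60.4%) lie below FF2, RF1 and RF2 (78.3% to 82.3%), so the low and high values cut across the feeding groups.

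Of the other tested genes of bile acid synthesis, AMACR alone had FF and RF values that did not overlap. Of the 16 others on the list, 6 were in the table and 5 were tested, and 10 (CYP27A1 and CYP7B1, which open and continue the alternative route, among them) were not analysed here. None of the 5 was called: 0 by edgeR (quasi-likelihood, all genes), 0 at its unadjusted p under 0.05, and 0 by DESeq2. Their median log2 fold change was 0.03, beside 0.01 over all tested genes, and 3 lay above 0 (all 5 with library totals in place of TMM).

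AKR1D1, the reductase that acts on the sterol ring after CYP7A1, stood at 136 and 237 CPM in FF1 and FF2 and at 51.5, 51.7 and 232 CPM in RF1, RF2 and RF3. As with CYP8B1, RF3 lay within the range of the FF hens and far above RF1 and RF2. Its log2 fold change was 0.74 ± 0.67 (SE). AMACR, a racemase needed to shorten the side chain, stood at 32.0 and 30.5 CPM in FF and at 20.2, 26.4 and 24.5 CPM in RF (0.40 ± 0.27). The groups did not overlap for AMACR, as for 27% of all tested genes, and the difference was small. HSD17B4, the peroxisomal bifunctional enzyme of side-chain shortening, lay at 0.03 ± 0.27 on the log2 scale, ranging from 469 to 530 CPM over the 5 hens. ABCD3, a peroxisomal transporter of bile acid precursors, lay at -0.05 ± 0.42, and the cholesterol hydroxylase CYP46A1 at -0.09 ± 0.29. CH25H, another cholesterol hydroxylase, was below the filter, at no more than 1.09 CPM in any hen.

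**Figure D3:**
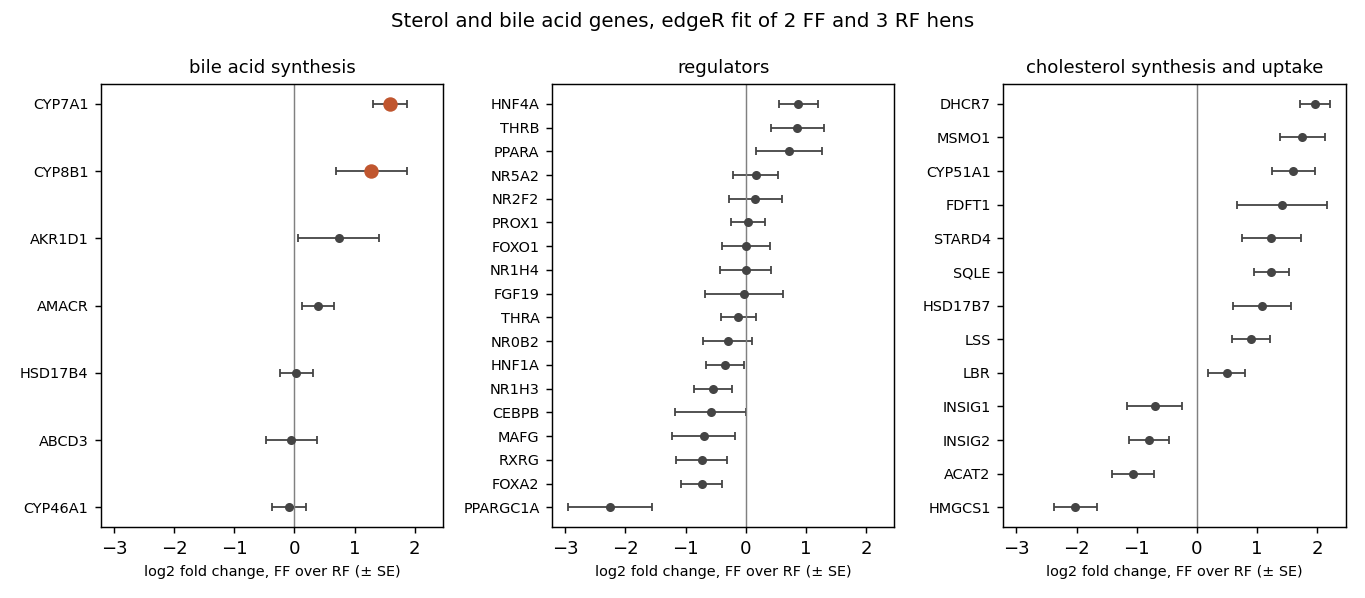
Log2 fold change, FF over RF, with its SE (bars) for tested genes of bile acid synthesis (left), of regulators of CYP7A1 and CYP8B1 (middle) and of cholesterol synthesis and uptake (right), from the edgeR fit of 2 FF and 3 RF hens; larger coloured points mark CYP7A1 (1.59) and CYP8B1 (1.28). The members of the middle list lie on both sides of 0, while most of those shown on the right lie above it, HMGCS1 (-2.02) being the lowest.

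Regulators of the pair lay on both sides of 0. Of 34 listed genes 18 were tested, 7 lay above 0 (7 to 9 under other scalings) and the median log2 fold change was -0.07. Both edgeR (quasi-likelihood) and DESeq2 called 0 of them. Unadjusted edgeR p-values under 0.05 belonged to 1 higher and 1 lower gene, classes that held 4.41% and 4.94% of all tested genes. The higher one was HNF4A, an activator of both genes in mammals, at 158 and 201 CPM in FF and 116, 64.6 and 113 CPM in RF (0.87 ± 0.33, edgeR adjusted p = 0.503). Both FF hens lay above the RF hens for HNF4A, as for 13.1% of tested genes. The lower one was PPARGC1A, a coactivator induced by fasting, at 3.08 and 4.73 CPM in FF and 30.8, 17.9 and 6.31 CPM in RF (-2.26 ± 0.70, edgeR adjusted p = 0.436). FOXA2, a hepatocyte transcription factor, lay at -0.73 ± 0.34, and the thyroid hormone receptor THRB at 0.86 ± 0.44. Among the 18 tested regulators, FF lay above RF without overlap for 2 and below for 2. Over all tested genes these shares were 13.1% and 13.9%.

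Log2 fold changes of the bile acid feedback genes lay between -0.30 and 0.17, too imprecise to show whether these genes differed. FXR (NR1H4) stood at 67.9 and 185 CPM in FF and at 139, 103 and 136 CPM in RF (0.00 ± 0.42 on the log2 scale). The 2 FF hens lay at the extremes, on either side of the RF hens. SHP (NR0B2) stood at 78.2 and 151 CPM in FF and at 199, 125 and 97.0 CPM in RF (-0.30 ± 0.41). LRH-1 (NR5A2) lay at 0.17 ± 0.37. FGF19, in mammals mainly a signal from the intestine, was scarce, at 3.27 to 12.9 CPM, and lay at -0.02 ± 0.65. Their SEs, 0.37 to 0.65, are as large as or larger than the values themselves. FGFR4 and KLB, the receptor and coreceptor of FGF19, were not analysed here.

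Genes that supply cholesterol, the substrate of CYP7A1, lay mostly higher in FF. Of 26 listed genes 15 were tested, 11 of them lay above 0 and the median log2 fold change was 1.24. The edgeR quasi-likelihood test called 0. Unadjusted edgeR p-values under 0.05 belonged to 8 genes higher and 3 lower in FF, a class that held 4.41% and 4.94% of all tested genes. DESeq2 called 6 as higher and 1 as lower, where it called 0.72% of all genes as higher and 1.83% in either direction. FF lay above RF without overlap for 10 of the 15 and below for 3. Over all tested genes these shares were 13.1% and 13.9%.

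DHCR7, the last enzyme of cholesterol synthesis, stood at 289 and 254 CPM in FF and at 66.6, 68.4 and 73.6 CPM in RF (1.97 ± 0.25, edgeR adjusted p = 0.0901). The demethylating oxidase MSMO1 lay at 1.75 ± 0.38. For both genes the 2 FF hens stood above all RF hens, as for 13.1% of tested genes. HMGCS1, which acts early in the route, went the other way, at 768 and 756 CPM in FF and 3493, 2327 and 3442 CPM in RF (-2.02 ± 0.35, edgeR adjusted p = 0.136).

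Transport, storage and electron supply genes lay on both sides of 0. Among bile acid and sterol transporters, 5 of 23 listed genes were in the table and 3 were tested. The cholesterol exporter ABCA1 lay at -0.52 ± 0.29 and the organic anion exporter ABCC4 at 0.41 ± 0.36. The lysosomal sterol carrier NPC2 stood at 818 and 277 CPM in FF and at 1689, 697 and 896 CPM in RF, groups that overlapped. ABCB11, the bile salt export pump, was not analysed here. OSBPL2, an oxysterol-binding protein, was the sole tested gene of 9 on cholesterol esters and storage, at 0.45 ± 0.28. POR, which passes electrons to microsomal P450 enzymes, lay at -0.05 ± 0.38, and the cytochrome b5 reductase CYB5R3 and the cytochromes b5 CYB5A and CYB5B at 0.64 ± 0.28, 0.74 ± 0.37 and 0.18 ± 0.26. PGRMC1, a haem-binding partner of P450 enzymes, lay at 0.11 ± 0.35. Of these 9 tested genes, edgeR (quasi-likelihood) called 0, with 0 at its unadjusted p under 0.05, and DESeq2 called 0. The groups did not overlap for 4 of them, with FF below for ABCA1 and FF above for ABCC4, OSBPL2 and CYB5R3. Over all tested genes the groups did not overlap for 27%, with FF below for 13.9% and FF above for 13.1%.

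Most other P450 genes lay below 0. The table had 18 symbols of this family, 13 of them were tested, and their median log2 fold change was -0.20. Besides CYP7A1 and CYP8B1, those above 0 were CYP51A1 (1.60 ± 0.36), which removes a methyl group from lanosterol, and CYP2C45 (1.72 ± 0.84). The largest differences in the other direction were those of CYP2C18 (-3.37 ± 0.70), CYP2H1 (-1.57 ± 0.47) and CYP4V2 (-1.40 ± 0.27). Each of these 3 had both FF hens below all RF hens, as had 13.9% of tested genes. The edgeR quasi-likelihood test called 0 of the 13, and, outside the pair, DESeq2 called these 3 as lower and CYP51A1 as higher. The same 4 had an unadjusted edgeR p under 0.05. Of all tested genes, DESeq2 called 1.83%, and 9.35% had such an unadjusted p. CYP2C45, CYP2C18, CYP2H1 and CYP4V2 were named after their values were seen. The groups also did not overlap for other P450 genes, among them CYP51A1 and CYP2C45 with FF above, as for 13.1% of tested genes.

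The genes closest in pattern differed between the members. Likeness was the root mean square distance between centred log2 CPM profiles over the 5 hens, among 4293 other tested genes whose log2 CPM averaged 1 or more. For CYP7A1 the nearest were the kinase MAPK6 (0.09), the vesicle adaptor subunit AP3S1 (0.10), the cell cycle kinase CDK6 (0.12), the ubiquitin ligase subunit SKP2 (0.15) and CYP51A1 (0.17). All 5 had both FF hens above the RF hens, as did 13.1% of tested genes. For these 5 it follows from picking genes close to CYP7A1 in pattern. CYP51A1, for instance, stood at 1182 and 1904 CPM in FF and at 474, 399 and 652 CPM in RF.

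For CYP8B1 the nearest genes lay farther off. They were the citrate exporter ANKH (0.30), the matrix proteoglycans OGN (0.34) and LUM (0.36), the haem synthesis enzyme ALAS1 (0.36) and ACACA (0.37), which makes malonyl-CoA for fatty acid synthesis. In each of these RF3 was the highest RF hen and RF2 the lowest, an order that follows largely from picking genes close to CYP8B1 in pattern. ALAS1 stood at 293 and 180 CPM in FF and at 105, 75.5 and 294 CPM in RF. ACACA stood at 3820 and 2846 CPM in FF and at 887, 339 and 2707 CPM in RF. OGN had 2 to 22 estimated counts per hen, so its place rests on few reads. CYP8B1 itself ranked 544 among the genes nearest to CYP7A1, at a distance of 0.63, and CYP7A1 ranked 65 among those nearest to CYP8B1.

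**Figure D4:**
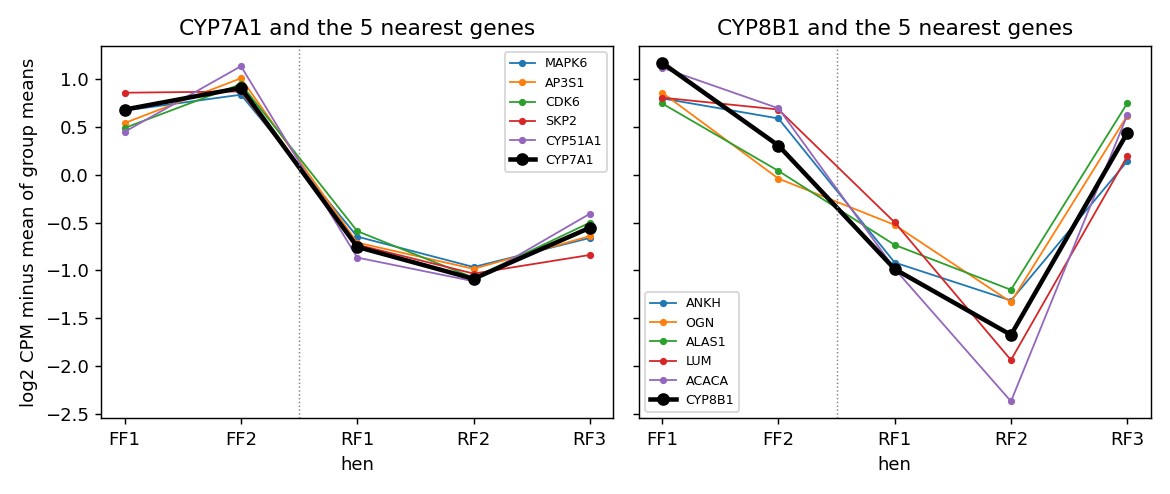
Log2 CPM of CYP7A1 (left) and CYP8B1 (right) and of the 5 genes nearest to each, in each hen, after subtracting the mean of the FF and RF means; lines join the values of a gene and imply no order of hens, and the dotted line separates FF from RF. The left panel falls between FF2 and RF1 in every gene, while in the right panel RF3 stands above RF1 and RF2. These shared shapes follow largely from how the genes were picked.

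Markers of other liver cells were also measured, since in bulk tissue fewer cells of a type and less RNA per cell cannot be told apart. Summed hepatocyte markers (13 of 14 in the table) ranged from 211934 to 215091 CPM in FF and from 181460 to 261047 CPM in RF. The most abundant, such as VTG1 and TF, weigh most in these sums. Of the 12 tested hepatocyte markers, 4 had a log2 fold change above 0 and 8 below, so the sum hides differences in direction. Stellate cell and fibroblast markers (5 of 8) summed to 537 to 1264 CPM in FF and 505 to 751 CPM in RF. All 5 of these were tested, and like the pair each had a log2 fold change above 0 (median 0.72). The same direction held for all 3 tested erythroid markers (median 0.36). Both FF hens stood above all RF hens for LUM (1.28 ± 0.55) and ACTA2 (0.72 ± 0.32), as for 13.1% of tested genes. The groups overlapped for the rest of the 5. LUM was also among the genes nearest to CYP8B1. Endothelial markers (3 of 7) summed to 161 to 202 CPM in FF and 271 to 318 CPM in RF, groups that did not overlap. All 3 were tested and each had a log2 fold change below 0 (median -0.93). For 2 of them FF lay below RF without overlap, as for 13.9% of tested genes. Cholangiocyte markers (6 of 7, KRT7 listed at 0) summed to 129 to 241 CPM in FF and 239 to 278 CPM in RF. EPCAM, the most abundant, weighed most in this sum and lay at -0.71 ± 0.39 on the log2 scale. Of the 4 tested cholangiocyte markers, 3 had a log2 fold change above 0 and 1 below (median 0.16), so this sum too hides differences in direction. Immune markers (6 of 7) summed to 1790 to 2803 CPM and 2418 to 4172 CPM, and erythroid markers (5 of 9) to 3595 to 3602 CPM and 1085 to 4151 CPM, in FF and RF. Of the 6 tested immune markers, 3 lay above 0 and 3 below. The part of these cell types in the values of CYP7A1 and CYP8B1 was not tested.

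Neighbouring genes were examined because whether counting used strand is not given in the sources used here. In the GRCg7b annotation UBXN2B overlaps CYP7A1 and ACKR2 overlaps CYP8B1. UBXN2B stood at 6.77 and 6.91 CPM in FF and at 5.41, 5.58 and 3.97 CPM in RF (0.46 ± 0.41 on the log2 scale). Both FF hens lay above the RF hens for it, as for 13.1% of tested genes. ACKR2 was not analysed here. SDCBP, on the other side of CYP7A1, stood at 173 and 162 CPM in FF and at 177, 174 and 145 CPM in RF (0.02 ± 0.26 on the log2 scale). Of the genes near CYP8B1, IBA57 lay at -0.01 ± 0.34. The P450 genes are a multigene family, and how reads shared between its members were counted is likewise not given.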

How the data were processed

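Liver RNA of 5 hens was sequenced. The deposited table holds estimated counts per gene symbol with 1 column per hen, and column totals show no normalization by the authors. FastQC, TopHat2 2.0.13, Cuffdiff 2.2.1, edgeR and the build galGal4 are named, with no role or order, per the submitters' processing notes. Estimated counts were rounded (51 of 6286 entries were not whole). The filterByExpr step of edgeR, at a minimum count of 10, kept 4309 genes and dropped 1977. Counts were scaled by TMM and tested with edgeR 4.0.16 in R 4.3.3 (glmQLFit, then a two-sided glmQLFTest on FF against RF with no covariate), with Benjamini-Hochberg adjustment over all tested genes and a threshold of 0.05. The SE of a log2 fold change is its size over the square root of the F statistic. The ratio of CYP7A1 to CYP8B1 added 0.5 to each count on the log2 scale. Log2 CPM used a prior count of 2. Gene order and overlaps came from the RefSeq table of GRCg7b, another build than the authors', matched by symbol, and no coordinates from it are given here.

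The pair and the gene lists, written from textbook knowledge, were chosen with earlier results of these data known. Named genes were the pair, the 5 nearest to each in pattern, every measured bile acid synthesis gene, up to 4 tested genes with the smallest p from each other sterol or bile acid list, and a set of key regulators; neighbours were taken by position. Some genes under these rules are counted in their lists but not reported here by name. Alternatives were DESeq2 1.42.0, limma-voom (limma 3.58.1), the edgeR likelihood ratio test, other scalings and filters, a replicate block, and leaving out each hen. The steps were tested on simulated data.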

Additional observations from a re-analysis of the deposited data

How the results depend on the processing

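The log2 fold change of CYP7A1 stayed above 0 in all 15 alternatives (1.46 to 1.72), and so did that of CYP8B1 (0.77 to 2.12). CYP7A1 lay past the call threshold under DESeq2 (1.59) and the edgeR likelihood ratio test (1.59) and in no other alternative, and CYP8B1 in none. The pair was chosen on this contrast, so these calls describe the choice and are no test of it. Leaving out single hens gave 1.46 to 1.72 for CYP7A1, 0.77 to 2.12 for CYP8B1 and -0.44 to 0.65 for the log2 ratio difference.

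Of all genes, 2 were called as reported, 6 with no filter on low counts, 1 with 5 CPM in 2 libraries, 79 by DESeq2, 76 by the edgeR likelihood ratio test, 6 with the replicate block and 0 to 8 without single hens. Among the bile acid and sterol lists, 0 of 49 tested genes were called as reported, 1 (DHCR7) with no filter, and the same 8 by DESeq2 and the likelihood ratio test (CYP7A1, CYP51A1, DHCR7, HMGCS1, MSMO1 and SQLE among them). Library totals in place of TMM moved the median log2 fold change of all genes by 0.10, and CYP7A1 and CYP8B1 to 1.69 and 1.40. The genes nearest in pattern were the same 5 for each member with library totals and with centring on the mean of 5 hens. Library totals move all genes of a hen almost alike, and the other choice changes only each gene's centre. Both left the distances little room to change, so the agreement says little about how stable the lists are.

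FF and RF share the replicate numbers 1 and 2, but hens with the same number are different animals. Deviations of same-numbered hens from their group means correlated at -0.14 and -0.36 over genes. With 2 FF hens, the deviations of FF1 and FF2 are equal and opposite. These correlations therefore cannot show whether same-numbered hens shared anything beyond the number. With the replicate block the log2 fold changes were 1.72 for CYP7A1 and 2.10 for CYP8B1, and the ratio difference was -0.37. The lowest count behind a value of the pair was 56 (CYP8B1 in RF2), with a counting error of 13.4%.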
